A study of Mus musculus with 6 samples.

Results

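The respiratory chain is built from proteins of 2 genomes, and RNA of the genes of both was compared in mouse pancreatic tumour organoids with and without knockdown of Jag1. Genes were taken by symbol: mt-Nd, mt-Co, mt-Cytb and mt-Atp genes of the mitochondrial genome, and nuclear genes named Nduf, Cox4 to Cox8, Uqcr, Uqcc, Sdha to Sdhd and Atp5, without pseudogenes and antisense genes. The table listed 101 of them among 14254 genes, 12 encoded in the mitochondrial genome and 89 in the nucleus. In the gene annotation (GENCODE M21, build GRCm38) 110 gene models fitted the symbols. The 9 that the table did not list were mt-Atp8, Cox4i2, Cox6a2, Cox6b2, Cox7b2, Cox8b, Cox8c, Ndufa4l2 and a further model of Atp5o that overlaps the listed one. All 101 reached 10 normalised counts in at least 3 libraries and were tested.

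RNA came from organoids (clusters of tumour cells grown in gel) of the line KPF_5.3G, made from mouse pancreatic ductal adenocarcinoma (PDAC), so all samples derive from 1 tumour line. In 3 samples, labelled WT, the cells carried a control hairpin (shCtrl). In the other 3, labelled Jag1 knockdown, they carried the lentiviral hairpin shJag1_3 against Jag1, a ligand of the Notch receptors. The medium of all samples held B27, nicotinamide, N-acetylcysteine, gastrin and the factors EGF, FGF-10, Noggin and R-spondin-1. The design text names the samples of a group biological replicates, without saying what sets them apart, so a p-value measures only the spread between these samples.

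Electrons from NADH enter the chain at complex I and those from succinate at complex II, pass through complex III and cytochrome c to complex IV, and reduce oxygen there. Complexes I, III and IV pump protons across the inner membrane, and complex V, the ATP synthase, uses the gradient to make ATP. The mitochondrial genome encodes core subunits of complexes I, III, IV and V and none of complex II. It is transcribed from both strands as long RNAs by a polymerase of its own and cut into single RNAs afterwards, whereas each nuclear gene has its own promoter and its protein is imported. Copies of mitochondrial DNA also lie in the nuclear genome, mostly as pseudogenes.

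The libraries held between 22110664 and 35010147 gene reads. Both replicate 1 libraries stood apart from the other 4, and libraries with the same number deviated from their group means together, so controls and knockdowns of 1 number are called a pair below. Controls and knockdowns of numbers 2 and 3 also deviated together across the numbers, so the matching within pairs 2 and 3 is uncertain. Jag1 read 412, 983 and 847 across controls 1 to 3, and 226, 321 and 557 across knockdowns 1 to 3, in normalised counts. The groups overlapped, although each knockdown was below the control of its number (log2 change -1.03, SE 0.45, adjusted p = 0.691 in limma, and adjusted p = 0.00630 in DESeq2 with the replicate number in the model). The exact two-sided permutation test gave p = 0.2, and 3 against 3 libraries cannot go below 0.1. With that number in the model, limma and edgeR gave Jag1 an adjusted p of 0.149 and 0.182. Of 13997 genes tested, limma called 0 at an adjusted p below 0.05 (1021 at an unadjusted p below 0.05), edgeR called 0, and DESeq2 with the replicate number called 1000 (7.14%). limma and edgeR with the replicate number each called 2 genes, and 0 of the 101. Calls of respiratory chain genes over 6 libraries are thus those of DESeq2 with that number alone. Markers of PDAC epithelium were all listed (7 of 7), at a summed 140743 to 185134 normalised counts for controls, and 190293 to 482641 for knockdowns, and 4 of them (Krt8, Krt19, Epcam and Muc1) rose in DESeq2 with the replicate number. Of marker genes of other cells the table listed 1 of 6 for fibroblasts (Pdgfra, at most 23.7), 1 of 5 for immune cells (Cd68), 1 of 5 for acinar cells (Cela1, at most 47.4), 0 of 3 for endothelium and 0 of 4 for endocrine cells. Cd68, a lysosomal protein of macrophages, rose from 115 ± 18.8 to 502 ± 444 (SD, n = 3) in DESeq2 with the replicate number (adjusted p = 0.00801), while Ptprc, Lyz2 and Csf1r were not listed. The part of these markers in the results below was not tested.

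Of the 12 mitochondrially encoded genes 5 were listed at low counts, and these are the 5 whose sequence recurs nearly base for base in the nuclear genome, called near-identical copies below. For each gene, every stretch of 50 bases was searched for an exact match in any other annotated transcript. In mt-Co2, mt-Co3, mt-Atp6, mt-Nd3 and mt-Nd4l, 98.0% to 100% of the stretches had one, in each gene in a pseudogene of a row of them that lie side by side on chromosome 1, from chr1:24611535-24612410 to chr1:24614885-24615565. A read of such a stretch cannot be assigned to 1 place by its sequence. mt-Co2 encodes the copper-binding second subunit of complex IV, and its annotated copy Gm28661 matches it over 681 of 681 aligned bases. The opening 90 bases of both are shown because they carry no difference by which a read could be placed. The stretch of mt-Co2 lies at chrM:7013-7102 (plus strand) and Gm28661 at chr1:24615476-24615565 (minus strand, shown 5′ to 3′ along the gene), in GRCm38.

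mt-Co2: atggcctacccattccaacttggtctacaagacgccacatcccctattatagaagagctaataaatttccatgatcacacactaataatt
Gm28661: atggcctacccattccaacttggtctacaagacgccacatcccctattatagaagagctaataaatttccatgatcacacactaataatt

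The copy of mt-Cytb, the cytochrome b gene of complex III, differs at many bases. Over 1142 aligned bases Gm11410 on chromosome 4 matched mt-Cytb at 1061 (92.9%), and 0 of the stretches of 50 bases were shared. The stretches below, at chrM:14146-14235 and chr4:80003990-80004079 (both plus strand, GRCm38), differ at 5 of 90 bases, which stand in capitals. They are shown as the contrast to mt-Co2, a gene whose copy differs within every stretch of 50 bases.

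mt-Cytb: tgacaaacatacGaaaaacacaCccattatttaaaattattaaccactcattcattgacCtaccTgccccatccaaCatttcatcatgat
Gm11410: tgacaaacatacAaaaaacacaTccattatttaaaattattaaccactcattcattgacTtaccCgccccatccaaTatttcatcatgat

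The listed levels split along this line. The 5 genes with a near-identical copy were listed at 6.14 to 367 normalised counts in single libraries, and the other 7 at 5173 or more. mt-Co1 and mt-Co2 encode subunits of the same complex, and the table gave mt-Co1 109123 normalised counts on average and mt-Co2 35.0. Genes that share fewer stretches were not listed low: mt-Nd4, with 62.2% of its stretches in Gm28439, was listed at 18625 on average, and mt-Co1, with 51.1%, was the most abundant of the 12. Copies that the table listed were low too, such as Gm28661 at 18.2 to 92.2 and Gm10925, the copy of mt-Atp6, at 18.4 to 95.9 normalised counts. How reads with several matches were treated is not given in the sources used here, and its part in these levels was not tested. Levels of the 5 genes are therefore given below as listed, and the median change of the 12 genes, over all libraries and by pair, is set beside that of the other 7.

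**Figure D1:**
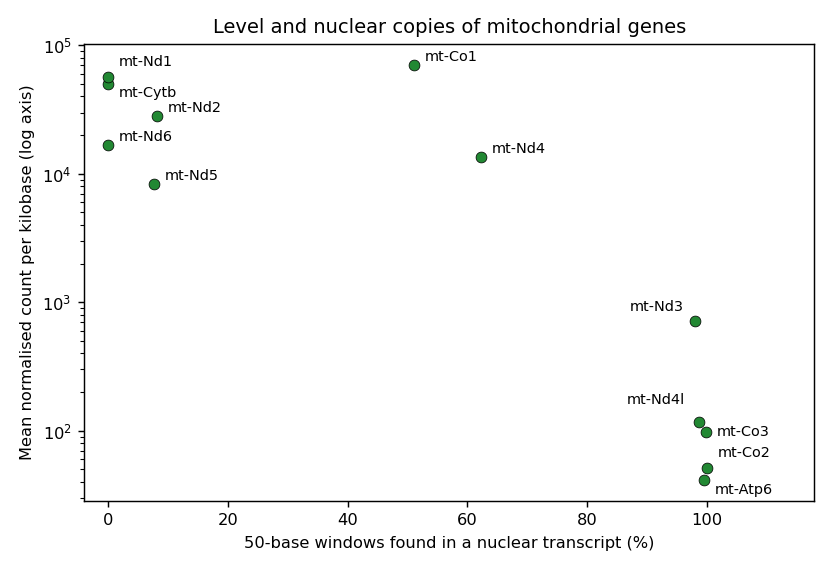
Listed level of the 12 mitochondrially encoded genes against the share of their sequence found elsewhere. The horizontal axis gives the percentage of 50-base stretches with an exact match in another annotated transcript, and the vertical axis (log scale) the mean normalised count per kilobase over 6 libraries, 1 point per gene. The 5 genes at 98.0% or more lie at 709 or lower, and the other 7 at 8376 or higher.

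Per kilobase of annotated exon the 7 genes ran in the order mt-Co1 (70629.9 normalised counts), mt-Nd1 (57052), mt-Cytb (49989), mt-Nd2 (28165), mt-Nd6 (16908), mt-Nd4 (13516) and mt-Nd5 (8376), as means over the 6 libraries. Of the stretches of 50 bases, 62.2% in mt-Nd4 and 51.1% in mt-Co1 recur in another annotated transcript, and at most 8.19% (mt-Nd2) in the rest. Exon lengths were not corrected for this. Its part in the order, and in the shares and ratios of mt-Co1 below, was not tested. mt-Nd6 is the 1 protein gene of this genome on the opposite strand. The library kit does not mark strand, so reads of mt-Nd6 and of RNA from the strand opposite to it cannot be told apart.

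Fewer mitochondrially encoded reads were seen in the knockdown of pairs 2 and 3, for most of the genes and, among the 7 without a near-identical copy, most for mt-Nd2 and mt-Cytb, whereas the median difference in pair 1 was near 0. In limma over all 6 libraries 0 of the 12 passed, as for all genes (0.00% called), and 0 had an unadjusted p below 0.05. DESeq2 with the replicate number called mt-Nd2 and mt-Nd5 lower and 0 of the 12 higher, where it called 2.60% of all genes lower and 4.54% higher. Neither gene was called by limma or edgeR with the replicate number. The median log2 change of the 12 was -0.54 in limma, with all 12 below 0 and a range of -0.94 to -0.077, beside a median of 0.0027 over all genes. It was -0.99 without control 1, -0.16 without control 3 and -0.19 without knockdown 1. The median was -0.62 over the 7 genes without a near-identical copy and -0.37 over the 5 with one. By pair the medians of the 12 were 0.017, -0.46 and -0.83, and those of the 7 were 0.029, -0.70 and -0.93. In bulk RNA, fewer cells of a kind and less of an RNA per cell cannot be told apart.

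Complex I holds 7 of the mitochondrially encoded subunits, all in its membrane arm. mt-Nd2 (chrM:3914-4951, plus strand), a subunit of the proton-pumping part, read 13521, 44209 and 63478 across controls 1 to 3, and 13271, 16246 and 24684 across knockdowns 1 to 3. Replicate 1 was low in both groups alike, while knockdowns 2 and 3 lay far below controls 2 and 3 and above control 1. mt-Nd2 fell by 0.95 on the log2 scale (SE 0.29, adjusted p = 0.0228) in DESeq2 with the replicate number, and in limma it was at -0.94 (SE 0.58, adjusted p = 0.780).

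mt-Nd5 (chrM:11742-13565, plus strand), another proton-pumping subunit, read 9481, 17544 and 28625 across controls 1 to 3, and 6506, 10886 and 18621 across knockdowns 1 to 3. The groups overlapped, yet each knockdown lay below the control of its number, and by a like amount, with log2 differences of -0.54, -0.69 and -0.62 in pairs 1, 2 and 3. It fell by 0.62 (SE 0.16, adjusted p = 0.00311) in DESeq2 with the replicate number and was at -0.62 (SE 0.51, adjusted p = 0.843) in limma. The calls of mt-Nd2 and mt-Nd5 were lost in DESeq2 with the replicate number when pair 2 or pair 3 was left out, where 0 of the 101 genes passed.

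mt-Nd1, the subunit next to the quinone site, read 29538, 74239 and 91479 across controls 1 to 3, and 30139, 45713 and 56488 across knockdowns 1 to 3. mt-Nd4, a proton-pumping subunit, read 8701, 28069.7 and 35120.5 across the controls, and 10129.8, 14992 and 14739 across the knockdowns. mt-Nd6 read 5173, 10859 and 13557 across the controls, and 6545, 9400.1 and 7116 across the knockdowns. In all 3 genes knockdowns 2 and 3 were both below controls 2 and 3, and knockdown 1 was above control 1. None passed limma or DESeq2 with the replicate number on 6 libraries (log2 changes of -0.46, -0.65 and -0.27 in limma, adjusted p from 0.841 to 0.910). The 2 subunits with near-identical copies, mt-Nd3 and mt-Nd4l, were listed at 263 ± 116 and 40.3 ± 24.4 normalised counts for controls, and 230.0 ± 48.3 and 28.9 ± 19.7 for knockdowns (SD, n = 3).

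mt-Cytb (chrM:14145-15288, plus strand), the 1 mitochondrially encoded subunit of complex III, read 29315, 82288 and 119351 across controls 1 to 3, and 30845, 36025 and 45305 across knockdowns 1 to 3. Pair 1 was level, and the difference lay in pairs 2 and 3, where the log2 values were -1.19 and -1.40. It did not pass on 6 libraries (log2 change -0.84, SE 0.51, adjusted p = 0.780 in limma, adjusted p = 0.0524 in DESeq2 with the replicate number).

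mt-Co1 (chrM:5328-6872, plus strand), the catalytic subunit of complex IV and the most abundant of the 101 RNAs per kilobase, read 40714, 140950.3 and 171085 across controls 1 to 3, and 33908, 136917 and 131164 across knockdowns 1 to 3. Its log2 differences of -0.26, -0.042 and -0.38 in pairs 1, 2 and 3 were smaller than those of mt-Cytb in pairs 2 and 3, and it did not pass (log2 change -0.23, SE 0.74, adjusted p = 0.971 in limma, adjusted p = 0.501 in DESeq2 with the replicate number). The direction of its change was reversed without control 2, without control 3 and without knockdown 1, at 0.022, 0.16 and 0.43. mt-Co2 and mt-Co3 of complex IV were listed at 46.2 ± 25.5 and 88.5 ± 38.0 for controls, and 23.8 ± 9.85 and 64.7 ± 15.4 for knockdowns. mt-Atp6 of complex V, a part of the proton channel, was listed at 8.28, 28.7 and 57.3 across the controls, and 12.3, 29.5 and 32.9 across the knockdowns.

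**Figure D2:**
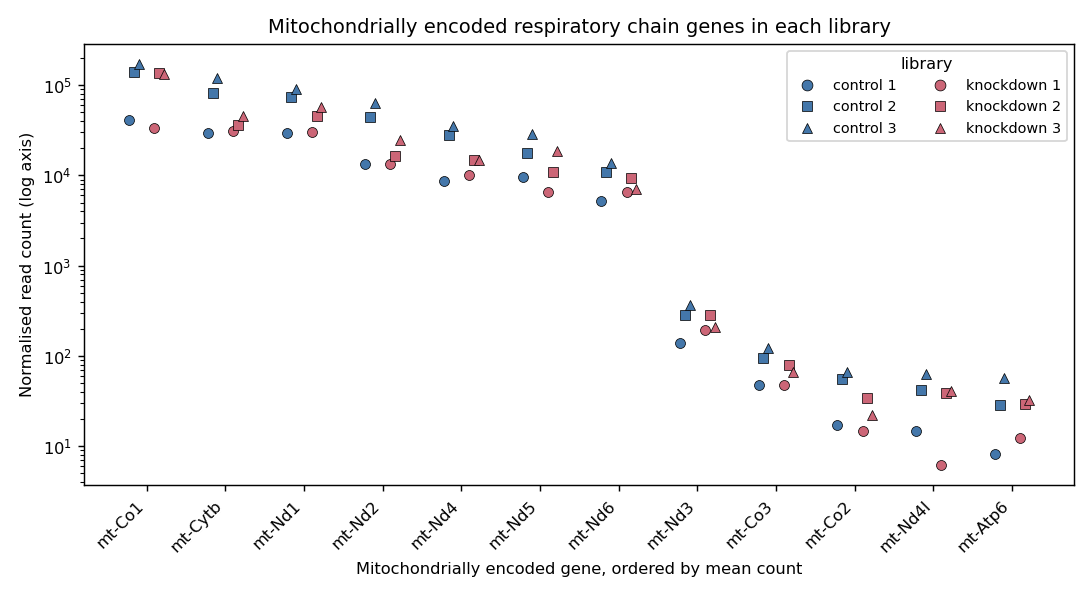
Normalised counts (vertical log axis) of the 12 mitochondrially encoded genes (horizontal axis, ordered by mean count) in each of the 6 libraries. Points are single libraries, controls and knockdowns by replicate number. Both replicate 1 libraries lie below the other 4 for 12 of the 12 genes, and the 5 genes with a near-identical nuclear copy, on the right, lie at 367 or lower.

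The makeup of the mitochondrially encoded RNA differed between libraries as well as its amount. Shares are of the reads as listed, and genes with a near-identical copy held at most 0.210% of those of the 12 (knockdown 1). Of the reads of the 12 genes mt-Co1 held 29.8%, 35.4% and 32.7% across controls 1 to 3, and 25.8%, 50.6% and 43.9% across knockdowns 1 to 3. Its share was highest in knockdowns 2 and 3, and both replicate 1 libraries were lowest. The share of mt-Cytb was 21.4%, 20.6% and 22.8% across controls 1 to 3, and 23.4%, 13.3% and 15.2% across knockdowns 1 to 3, and here knockdowns 2 and 3 were the lowest of the 6. Ribosomal RNAs of the same genome, which are no part of the chain, split as well. mt-Rnr1, the small ribosomal RNA, read 2650.4, 6763 and 8563 across the controls, and 2856, 7582 and 8472 across the knockdowns, with log2 differences of 0.11, 0.16 and -0.015 in pairs 1, 2 and 3. mt-Rnr2, the large one, read 9455, 20628 and 25004 across the controls, and 8791, 8867 and 13519 across the knockdowns, with differences of -0.10, -1.22 and -0.89, and fell in DESeq2 with the replicate number (adjusted p = 0.0414). The difference between both RNAs was not tested.

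Mitochondrially encoded genes differed more between replicate numbers than between the groups. Both replicate 1 libraries lay below all other 4 for 12 of the 12 genes, a pattern found in 23.3% of all genes tested. The mean of controls 2 and 3 was 3.46-fold that of control 1 in the median gene. Nuclear encoded members went the other way: both replicate 1 libraries lay above the other 4 for 65 of the 89, where 23.7% of all genes did, and below them for 1, Atp5s. Control 1 was 1.36-fold the mean of controls 2 and 3 in the median nuclear encoded gene. No label explains the number.

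Summed reads put both replicate 1 libraries lowest for the mitochondrial genome and highest for the nuclear one. Of all gene reads the 12 mitochondrially encoded genes took 0.543%, 1.44% and 1.90% across controls 1 to 3, and 0.507%, 0.959% and 1.12% across knockdowns 1 to 3. The 89 nuclear encoded genes took 1.44%, 0.966% and 1.01% across controls 1 to 3, and 1.66%, 1.14% and 1.07% across knockdowns 1 to 3. In both replicate 1 libraries and in knockdown 2 the nuclear share was the larger. In controls 2 and 3 and, by a small margin, in knockdown 3 it was the mitochondrial one. Genes with a near-identical copy held only 0.125% (knockdown 3) to 0.210% (knockdown 1) of the reads of the 12. The mitochondrial shares and the ratios below thus rest on the genes without such a copy. Which share would be larger with the reads of all 12 placed was not tested. The ratio of mitochondrially to nuclear encoded reads was 0.378, 1.50 and 1.88 across controls 1 to 3, and 0.305, 0.839 and 1.04 across knockdowns 1 to 3. Each knockdown was below the control of its number, and the groups overlapped through control 1.

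**Figure D3:**
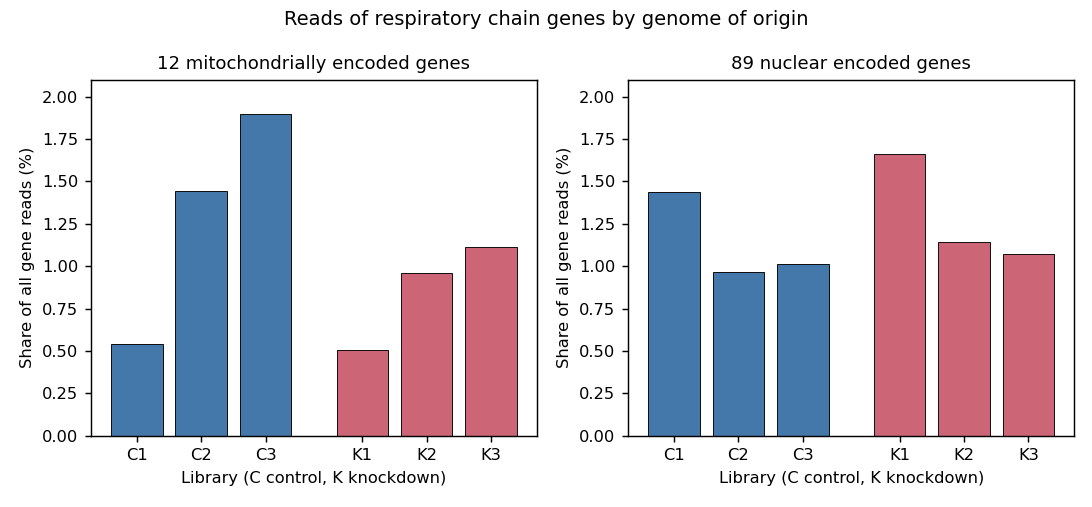
Share of gene reads, in percent, taken by the 12 mitochondrially encoded and the 89 nuclear encoded respiratory chain genes in each of the 6 libraries. The bars start at 0. Genes with a near-identical copy supply at most 0.210% of the reads of the 12 (knockdown 1). The mitochondrial share is lowest in control 1 and knockdown 1 (0.543% and 0.507%) and highest in control 3 (1.90%), and the nuclear share is highest in control 1 and knockdown 1 (1.44% and 1.66%).

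The same comparison within a complex sets a mitochondrially encoded subunit against a nuclear partner, per kilobase of exon. For complex IV, the ratio of mt-Co1 to Cox4i1, the subunit that senses the ATP to ADP ratio, was 3.53, 14.9 and 17.6 across controls 1 to 3, and 2.28, 12.5 and 15.3 across knockdowns 1 to 3. The gap between replicate 1 and the rest was far wider here than that between groups. For complex III, the ratio of mt-Cytb to Uqcrc1, a core protein of the matrix side, was 16.4, 63.6 and 93.6 across controls 1 to 3, and 15.4, 25.1 and 35.4 across knockdowns 1 to 3, and knockdowns 2 and 3 were far below controls 2 and 3. Both ratios were lower in the knockdown than in the control of its number in 3 of 3 pairs.

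Over single genes, the medians of the genomes lay apart in pairs 2 and 3 while their ranges overlapped, and this difference was not tested. The medians of the nuclear encoded genes were 0.25, 0.23 and 0.040 in pairs 1, 2 and 3, beside those of the mitochondrially encoded genes above, and the medians over all genes were 0.014, -0.0063 and 0.012. In pair 1, 7 of the 12 mitochondrially encoded genes were above 0, in pair 2 it was 2, both with near-identical nuclear copies (mt-Nd3 and mt-Atp6), and in pair 3 it was 0. Of the nuclear encoded genes 82, 74 and 50 of the 89 were above 0. The median of the mitochondrially encoded genes minus that of the nuclear encoded ones was -0.70 over all libraries in limma and -0.72 on replicates 2 and 3 only. It was -1.31 without control 1, -0.28 without control 3 and -0.21 without knockdown 1. Direction in all 3 pairs was shared by 5 of the 12 mitochondrially encoded genes as lower and 0 as higher, and by 2 of the 89 nuclear encoded genes as lower and 44 as higher, where 19.7% and 22.3% of all genes had such a course.

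**Figure D4:**
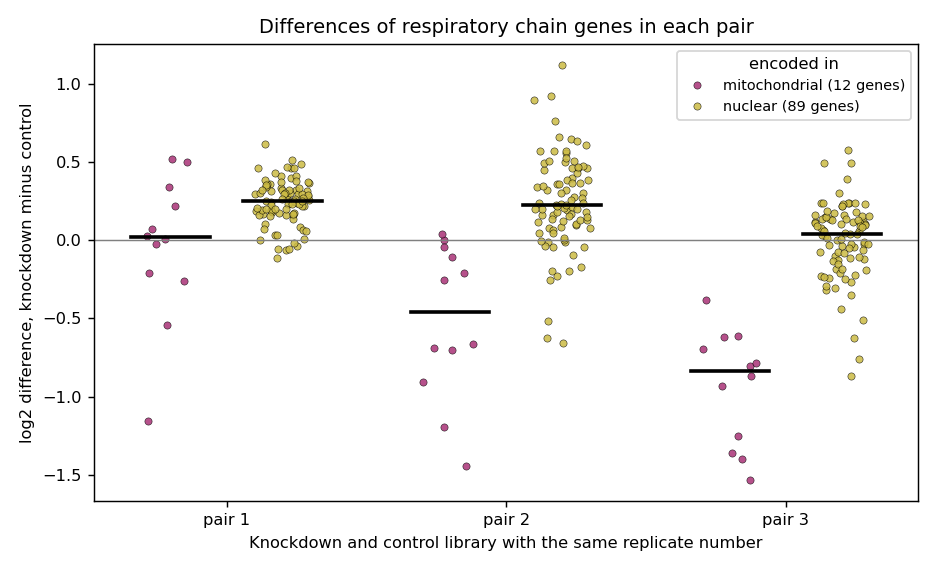
Difference between knockdown and control on the log2 scale in pairs 1, 2 and 3, 1 point per gene, for mitochondrially and nuclear encoded respiratory chain genes, with the median of each class as a line. The mitochondrial medians run from 0.017 in pair 1 to -0.83 in pair 3, and the nuclear medians lie between 0.040 and 0.25. With spike-in scaling the nuclear median over all libraries is -0.013.

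More mitochondrially encoded genes were called without the replicate 1 libraries, which stood apart. In limma on these 4 libraries mt-Nd2 (-1.40, adjusted p = 0.0349), mt-Cytb (-1.29, adjusted p = 0.0307) and mt-Nd4 (-1.08, adjusted p = 0.0191) fell, and 0 of the 12 rose, where 3.57% of all genes were called lower and 6.04% higher. Both knockdowns lay below both controls for 9 of the 12, a position that 28.9% of all genes had. DESeq2 with the replicate number on these libraries called 5 of the 12 lower (mt-Nd1, mt-Nd2, mt-Nd4, mt-Nd5 and mt-Cytb) and 0 higher, with 6.24% of all genes lower and 9.24% higher. The added genes encode membrane subunits of complexes I and III, and mt-Co1 was not among them in either fit.

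Of the 89 nuclear encoded genes 1 passed a test over the 6 libraries. Their median log2 change was 0.17 in limma, with 75 of 89 genes above 0 and a range of -0.48 to 0.66, and with spike-in scaling, which moved the median of all genes to -0.18, it was -0.013. Without knockdown 1 it was 0.015, and without control 1 and knockdown 3 it was 0.32 and 0.30. limma called 0 of the 89 and had 1 at an unadjusted p below 0.05, Cox6a1, where 7.29% of all genes were. DESeq2 with the replicate number called 1 of the 89 higher, Cox6a1, and 0 lower, where it called 4.54% and 2.60% of all genes. Controls and knockdowns did not overlap for 2 of the 89, Sdhc and Cox7a1, both with the knockdowns above, where 6.29% of all genes had that position, and for 0 with the knockdowns below (5.44%). On replicates 2 and 3 only, both knockdowns lay above both controls for 44 of the 89 (29.8% of all genes) and below them for 11 (28.9%).

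Complex I has 36 nuclear encoded structural subunits in the table, with a median log2 change of 0.13. The 7 core subunits, which form the arm with the flavin and the iron-sulfur clusters, had a median of 0.090 (-0.074 to 0.23), and the 29 accessory ones 0.15 (-0.16 to 0.52). Ndufs1, which holds several of the clusters, was at 0.0017 and Ndufs8 at 0.23. Ndufa2 and Ndufa8, the structural subunits highest per kilobase, went from 2504 ± 35.9 to 2977 ± 603 and from 2814 ± 639.7 to 3082 ± 986 normalised counts (SD, n = 3), log2 changes of 0.23 and 0.11. Ndufb8, an accessory subunit of the membrane arm, read 2921, 1476 and 1354 across controls 1 to 3, and 3624, 2335 and 2016 across knockdowns 1 to 3. Its knockdowns 2 and 3 were above controls 2 and 3, and it passed as higher in DESeq2 with the replicate number only once pair 1 was left out. On 6 libraries its adjusted p was 0.0565 in that fit and 0.809 in limma.

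Complex II, whose subunits are all nuclear encoded, had a median of 0.14 over 4 genes. Sdhc, a membrane anchor that binds haem, read 4007, 3495 and 3641 across controls 1 to 3, and 5002, 4302 and 4054 across knockdowns 1 to 3. All 3 knockdowns lay above all 3 controls by a small amount (log2 change 0.26, SE 0.16, adjusted p = 0.777 in limma). The other anchor, Sdhd, went from 3234 ± 842 to 3572 ± 796, and the flavin subunit Sdha from 6472 ± 845 to 6810.4 ± 249.7 (SD, n = 3). Both overlapped between groups, and their log2 changes of 0.15 and 0.081 were -0.029 and -0.10 with spike-in scaling.

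Complex III had a median of 0.14 over the 8 nuclear encoded structural subunits that the symbols cover, which leave out cytochrome c1 (Cyc1). The small subunits Uqcr11 and Uqcr10, highest per kilobase, went from 3122 ± 763 to 3989.7 ± 1159.8 and from 2470.2 ± 328 to 2963 ± 704, with log2 changes of 0.34 and 0.24. Uqcrb, a subunit near the quinone site, had the widest difference of the 8, 0.42 (adjusted p = 0.807 in limma), but 25.4% of its stretches of 50 bases also occur in another annotated gene. The iron-sulfur protein Uqcrfs1 was at 0.18.

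Complex IV had the highest median of the 5 complexes, 0.29 over 13 nuclear encoded subunits. Complex V followed with 0.24 over the 17 genes named Atp5, Atp5s among them. Of the 13, 10 were higher in the knockdown in 3 of 3 pairs, and of the 17 it was 12, where 22.3% of all genes were. The differences between these medians were not tested. The most abundant RNAs of complex V, the beta and alpha subunits of the catalytic head, differed little: Atp5b went from 32963 ± 5762 to 37066 ± 5991 and Atp5a1 from 24709 ± 4807 to 28447 ± 5578, log2 changes of 0.17 and 0.20. With spike-in scaling Atp5b was at -0.0088. Atp5k, a small membrane subunit, had the widest difference of complex V, 0.53 (adjusted p = 0.800 in limma, adjusted p = 0.104 in DESeq2 with the replicate number).

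Cox6a1, the ubiquitous form of subunit 6a, which binds near the edge of complex IV and takes part in its regulation by nucleotides, was the nuclear encoded gene with a call. It read 8920.4, 5665 and 5859.8 across controls 1 to 3, and 12259, 10716 and 8242 across knockdowns 1 to 3. Knockdowns 1 and 2 lay above all controls, and knockdown 3 above controls 2 and 3 but below control 1. It rose by 0.62 on the log2 scale (SE 0.18, adjusted p = 0.0153) in DESeq2 with the replicate number, and had an SE of 0.25 and an adjusted p of 0.668 in limma. limma and edgeR with the replicate number did not call it. The call was lost without pair 2 and without pair 3. The muscle and heart form of this subunit, Cox6a2, was not listed.

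Other subunits of complex IV that come in forms were mostly present in their ubiquitous form. Cox4i1, Cox6b1, Cox7a2 and Cox8a were listed at means of 10897, 5334, 2796 and 6554 normalised counts, while Cox4i2, of lung and low oxygen, Cox6b2, of testis, and Cox8b, of muscle, were not listed. Their log2 changes were 0.13, 0.47, 0.29 and 0.31, and none passed limma or DESeq2 with the replicate number. Cox4i1 was at -0.048 with spike-in scaling. The muscle form Cox7a1 was listed at a low level, 32.3, 37.9 and 32.4 across the controls, and 50.0, 83.6 and 38.2 across the knockdowns. All 3 knockdowns were above all 3 controls, and the gene did not pass (log2 change 0.66, adjusted p = 0.776 in limma).

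Ndufa4, first assigned to complex I and now to complex IV, read 6149.9, 3119 and 4035 across controls 1 to 3, and 7327, 4636 and 4409.7 across knockdowns 1 to 3. Each knockdown was above the control of its number, the groups overlapped, and it did not pass (log2 change 0.32, SE 0.31, adjusted p = 0.875 in limma, adjusted p = 0.342 in DESeq2 with the replicate number). Its hypoxia-induced relative Ndufa4l2 was not listed.

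Cox7a2l, a relative of subunit 7a that links complexes III and IV into supercomplexes, was the 1 of the 13 subunits of complex IV with a change below 0. It read 3617, 6209.8 and 6148 across controls 1 to 3, and 4357, 3935 and 3367 across knockdowns 1 to 3. Knockdown 1 was above control 1, and knockdowns 2 and 3 were below controls 2 and 3. The log2 change was -0.42 (adjusted p = 0.776 in limma) over 6 libraries. On replicates 2 and 3 only it fell by 0.76 (adjusted p = 0.0329 in limma), the 1 nuclear encoded gene of the 89 called there, where 3.57% of all genes were called lower and 6.04% higher. It was also called lower by DESeq2 with the replicate number without pair 1, where Cox6a1 and Ndufb8 were called higher. It shares 13.8% of its stretches of 50 bases with another annotated gene and Cox6a1 9.16%, and 21 of the 89 nuclear encoded genes share more than 5%.

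The 3 genes for the identical c subunit of the ATP synthase rotor were all present. Atp5g3 was listed at a mean of 7742 normalised counts, Atp5g2 at 4532 and Atp5g1 at 3177, with log2 changes of 0.30, 0.095 and 0.17. None passed, those of Atp5g2 and Atp5g1 were at -0.086 and -0.013 with spike-in scaling, and 36.7% of the stretches of Atp5g2 occur in another annotated gene.

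Assembly factors, which help build a complex without staying in it, had a median near 0. The 11 factors among the members had a median of -0.024, against 0.17 for all nuclear encoded members, a difference that was not tested. The 8 factors of complex I had a median of 0.0012, from -0.23 for Ndufaf4 to 0.33 for Ndufaf3. Uqcc3, needed for cytochrome b in complex III, had the lowest value of the 89, -0.48 (adjusted p = 0.770 in limma, adjusted p = 0.273 in DESeq2 with the replicate number). It read 645, 618 and 539 across controls 1 to 3, and 619, 401 and 318 across knockdowns 1 to 3. Each knockdown was below the control of its number, as was that of Ndufaf4. These were the only nuclear encoded members lower in 3 of 3 pairs, where 19.7% of all genes were.

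**Figure D5:**
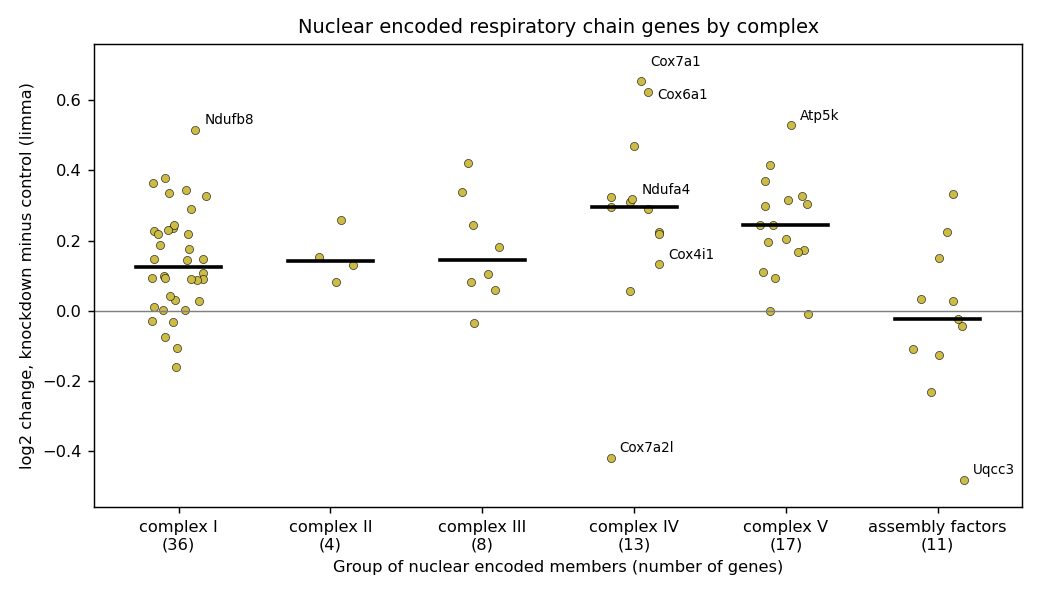
Log2 change between knockdown and control (limma, 6 libraries) of the 89 nuclear encoded genes by complex, with assembly factors apart. Each point is a gene and each line a median. Complex IV has the highest median (0.29), with Cox6a1 and Cox7a1 at the top and Cox7a2l at the bottom, and the assembly factors have a median of -0.024. With spike-in scaling the median of all 89 is -0.013.

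Promoters of the nuclear encoded genes were read from RefSeq (GRCm38.p6), 250 bases before to 50 after each start, for the 76 of 89 that matched. Motifs were searched on both strands. A gene was counted if any of its promoters held the motif. The NRF1 core GCGCATGCG occurred in 10 of the 76 (13.2%) and in 1.95% of all genes with a RefSeq promoter, or 4.05% of the listed ones. The GABP core CCGGAAG occurred in 18 (23.7%), against 9.93% and 20.1%, and the YY1 motif AAGATGGCG in 8 (10.5%), against 1.64% and 3.55%. These are factors known to bind promoters of respiratory genes, and a match is a description of the letters only. The promoter of Cox6a1 (chr5:115348909-115349208, minus strand) is printed because this was the nuclear encoded gene with a call. Capitals mark 2 overlapping matches to the NRF1 core, 1 on each strand, and a match to the GABP core, and that of Cox7a2l held none of the 3 motifs.

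Cox6a1 promoter: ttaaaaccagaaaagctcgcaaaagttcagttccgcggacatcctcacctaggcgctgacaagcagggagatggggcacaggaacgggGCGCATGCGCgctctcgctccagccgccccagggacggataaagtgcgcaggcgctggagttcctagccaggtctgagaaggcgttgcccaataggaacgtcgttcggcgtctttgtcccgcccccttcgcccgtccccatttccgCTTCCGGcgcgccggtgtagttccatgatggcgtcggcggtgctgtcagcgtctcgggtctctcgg

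Genes that act on the mitochondrial genome and its RNA formed further lists, too short to set a count of 0 apart from the 7.14% of all genes that DESeq2 with the replicate number called. Of 18 genes for its transcription and upkeep 0 passed in limma or in DESeq2 with the replicate number, with a median log2 change of -0.070. Polg, its DNA polymerase, was at 0.15 and Tfam, which packs this DNA and starts its transcription, at -0.069. Of 17 genes for processing and stability of its RNA 0 passed, with a median of -0.074. Hsd17b10, a part of its RNase P, was at -0.32 (adjusted p = 0.733 in limma), and the RNA-binding protein Grsf1 at -0.0090.

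Nuclear regulators of respiratory genes had 2 of 13 tested members called lower in DESeq2 with the replicate number and 0 higher, beside 2.60% and 4.54% of all genes, and a median of -0.11 in limma, which called 0. Ppargc1a encodes PGC-1alpha, a coactivator that raises the transcription of mitochondrial genes, and read 240.3, 148 and 188 across controls 1 to 3, and 153, 19.7 and 45.8 across knockdowns 1 to 3. Knockdowns 2 and 3 were the lowest of the 6 and control 1 the highest, and each knockdown was below the control of its number. It fell by 1.82 on the log2 scale (SE 0.49, adjusted p = 0.00724) in DESeq2 with the replicate number, with an adjusted p of 0.668 in limma. Ppard, a nuclear receptor of fatty acid use, read 4400.1, 5567 and 5519 across the controls, and 1973, 3131 and 1952 across the knockdowns, with all 3 knockdowns below all 3 controls. It fell by 1.16 (SE 0.20, adjusted p = 2.70e-06) in the same fit, with an adjusted p of 0.604 in limma.

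Neighbouring pathways were counted in the same way, and DESeq2 with the replicate number called 4.54% of all genes higher and 2.60% lower. Of 42 assembly factors outside the symbols 0 passed in either fit (median 0.10), among them Coa5 at -0.24 and Cox14 at 0.32, both factors of complex IV. Of 16 genes for cytochrome c and coenzyme Q 0 passed (median 0.15), with cytochrome c (Cycs) at 0.49. Cytochrome c1 (Cyc1), counted here because the symbols do not cover it, is a subunit of complex III and was at 0.29. Of 19 genes of the tricarboxylic acid cycle 0 passed (median 0.081), with malate dehydrogenase (Mdh2) at 0.30. Of 14 carriers and porins 2 rose in DESeq2 with the replicate number, 0 fell, and limma called 0 (median 0.25). These were the aspartate-glutamate carrier Slc25a13 (0.78, SE 0.24, adjusted p = 0.0260) and the dicarboxylate carrier Slc25a10 (0.55, SE 0.18, adjusted p = 0.0416). Slc25a13 went from 986 ± 251 to 1665 ± 153 and Slc25a10 from 2817 ± 1761 to 3901 ± 1786 normalised counts (SD, n = 3).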

How the data were processed

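RNA sequencing of 3 control and 3 Jag1 knockdown samples was analysed. The deposited table gives a signal (normalised counts), for which the authors divided the reads of each gene by a size factor of the library. On the values, this factor was that of DESeq2's median-of-ratios method. Reads were recovered from the steps between low values, and 100% of the values came out whole within 0.001 of a read. Per the submitters' processing notes, STAR 2.5.2b, DESeq2 1.32.0 and build GRCm38 were used. The counting tool and the annotation are not given in the sources used here. All 6 deposited tables were identical, and 1 was used.

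Symbols and positions were matched through GENCODE M21. Spike-in RNAs (48 of 14302 features) entered no test. limma-trend (limma 3.58.1, R 4.3.3) was run on log2 of the normalised count plus 1 for 13997 genes with at least 10 in at least 3 libraries, which left out 257. Changes are knockdown minus control on this scale, which understates the change of low genes. p-values were adjusted by Benjamini-Hochberg over all genes, with a threshold of 0.05. As count tests on the recovered reads, edgeR 4.0.16 (quasi-likelihood, TMM) called 0 genes and 2 with the replicate number as a block, and DESeq2 1.42.0 called 177 and 1000. The fits were tested on simulated data.

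Deviations from the group means of libraries with the same number correlated over all genes (r = 0.68 for number 1, r = 0.57 for number 2 and r = 0.44 for number 3). Since each was above 0.1, same-numbered libraries were taken as pairs, although no label explains the numbers.

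Members and gene lists were chosen with earlier results of these data known. Named were Jag1, mt-Co1 and Ndufa4, all mitochondrially encoded genes, nuclear encoded genes called by limma or blocked DESeq2, the 2 structural subunits highest per kilobase in each complex, genes of subunits that come in forms, and from each list up to 4 called genes or else the 2 most abundant. Values of some genes are not reported here. Others named (Ndufb8, Ndufs1, Ndufs8, Ndufaf3, Ndufaf4, Sdhc, Uqcrb, Uqcrc1, Uqcrfs1, Uqcc3, Atp5k, Atp5s, Tfam and the ribosomal RNAs) were chosen after their values were seen. Alternatives covered pseudocount, filter, test, replicate block, scaling and libraries, and leaving out a whole pair was added after seeing the data.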

Additional observations from a re-analysis of the deposited data

How the results depend on the processing

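limma called 0 genes with another pseudocount, another filter and scaling by reads outside the mitochondrial genome, as did edgeR. The count was 116 with spike-in scaling, 177 in DESeq2, 1346 on replicates 2 and 3 only, and from 0 to 294 when 1 library was left out, the highest without control 1. With the replicate block, which uses the pairing of the numbers, limma and edgeR each called 2 genes and DESeq2 called 1000. Blocked DESeq2 called 2167, 100 and 125 genes without pair 1, 2 or 3. Of the 101 respiratory chain genes blocked DESeq2 called 3, limma on replicates 2 and 3 only called 4 and blocked DESeq2 without pair 1 called 8, and all other alternatives called 0. Jag1 was called in blocked DESeq2 (-1.02) and without pair 1 in that fit (-1.10). With 1 library left out, the median of the mitochondrially encoded genes ran from -0.99 to -0.16, that of the nuclear encoded genes from 0.015 to 0.32, and their difference from -1.31 to -0.21. The nuclear median was -0.013 with spike-in scaling.

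The direction of 12 named genes was reversed under some alternative, none of them called in limma. With spike-in scaling Ndufa8 was at -0.072, Sdhd at -0.029, Sdha at -0.10, Atp5b at -0.0088, Cox4i1 at -0.048, Atp5g1 at -0.013 and Atp5g2 at -0.086, beside a median of -0.18 over all genes. Without pair 3, mt-Nd3 was at 0.25 in limma and blocked DESeq2, mt-Nd6 at 0.066 in both, and mt-Atp6 at 0.28 and 0.29. With 1 library left out the ranges that crossed 0 were -0.87 to 0.43 for mt-Co1, -0.51 to 0.20 for mt-Nd3, -1.20 to 0.22 for mt-Nd4l, -0.68 to 0.019 for mt-Nd6, -0.80 to 0.53 for mt-Atp6, -0.14 to 0.29 for Ndufa8, -0.023 to 0.35 for Sdhd, -0.0026 to 0.18 for Sdha, -0.073 to 0.32 for Cox4i1 and -0.13 to 0.40 for Atp5g1. The cause was not tested. Of 916 values over 40 named genes and all alternatives, 839 kept direction and side of the threshold, 47 passed it and 30 were reversed. Precision by depth is low for the 5 mitochondrially encoded genes with near-identical nuclear copies, listed at 367 normalised counts or fewer. It is low too for the nuclear encoded Cox7a1, at a mean of 45.7. The cause of the low counts of the 5 was not tested.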
